A study of Mus musculus with 282 samples.

Results

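The genes described here are the cytochrome P450 (Cyp) genes of families 1 to 3 in mouse liver, with the reductase gene Por and the nuclear receptor genes Nr1i2 and Nr1i3. Members were the symbols made of Cyp, a family number from 1 to 3, a subfamily letter and a gene number, plus those 3 genes, where the mean was at least 1 RPM (recovered reads per M reads of the library, M standing for mega, after rescaling) in each of the 2 tables. Of 45 symbols matching the rule 42 passed it, and the tests ran over 12412 genes of the first table and 12261 of the second. They comprised 39 P450 genes, of which 1 belonged to family 1, 34 to family 2 and 4 to family 3. The symbols that missed the level were Cyp2b13 at 0.352 RPM, Cyp2g1 at 0.687 RPM and Cyp3a57 at 0.691 RPM in the first table, while the lowest members there were Cyp2c39 at 2.52 RPM, Cyp2d34 at 2.71 RPM and Cyp2d12 at 2.88 RPM.

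The libraries came from livers of male C57BL/6J mice caged singly under 12 h of light and 12 h of dark, in a study of mTOR signalling and daily rhythms of liver transcripts. Mice lacking Bmal1, the clock activator, in the whole body (BMKO) and wild-type mice (WT), both fed at night only, received rapamycin, an inhibitor of mTORC1, or its vehicle, or no injection. WT mice fed arrhythmically were given the mTOR kinase inhibitor AZD8055 either at dawn or at dusk, or were left undosed, and further WT mice were fed ad libitum. Night-fed mice with a liver-specific knockout of Tsc1 (TSKO), which restrains mTORC1, or of Raptor (RPKO), a subunit of mTORC1, were set against mice with the Albumin-Cre transgene alone. That transgene acts mainly in hepatocytes, so that liver cells of other types can keep the targeted gene. In a second experiment WT mice received tunicamycin, a blocker of N-glycosylation, and were fed arrhythmically with dusk AZD8055, arrhythmically without it, or at night. Each of the 13 arms of the first experiment had 18 libraries, 3 at each of zeitgeber times (ZT) 2, 6, 10, 14, 18 and 22 h, and each of the 3 tunicamycin arms had 16 libraries, 4 at each of ZT 4, 10, 16 and 22 h. The sources used here give no doses, ages or interval from injection to sampling.

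P450 enzymes of these families are haem proteins of the endoplasmic reticulum that oxidise drugs, pollutants, steroids and fatty acids. They draw their electrons from NADPH through the reductase encoded by Por. The receptors PXR (Nr1i2) and CAR (Nr1i3) sense foreign compounds and switch on P450 genes such as Cyp3a11 and Cyp2b10, and clock-controlled transcription factors are known to act on parts of this system in liver.

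Promoter sequences are shown for Por and Nr1i3, a reductase and a receptor gene rhythmic in many arms, and for Cyp2a5 and Cyp2a4, whose transcripts both fell in BMKO liver. The letters are the 250 bases before the RefSeq start on build GRCm38.p6, on the strand of the gene, which is plus for all 4. In Por (chr5:135688895-135689144) capitals mark GCGTG on either strand, the core of the xenobiotic response element that the dioxin receptor binds, present in 4 of the 36 members with a RefSeq promoter and in 28.2% of all 32851 promoters. That window lies well inside the gene span given for Por below, which begins further upstream than this RefSeq start. In Nr1i3 (chr1:171213720-171213969) capitals mark the E-box CACGTG, a sequence that BMAL1 and CLOCK can bind, present in 2 of 36 members and in 6.02% of all promoters. In Cyp2a5 (chr7:26835089-26835338) and Cyp2a4 (chr7:26306942-26307191) capitals mark the bases that differ in their alignment, in which 245 of 251 columns were identical.
Por: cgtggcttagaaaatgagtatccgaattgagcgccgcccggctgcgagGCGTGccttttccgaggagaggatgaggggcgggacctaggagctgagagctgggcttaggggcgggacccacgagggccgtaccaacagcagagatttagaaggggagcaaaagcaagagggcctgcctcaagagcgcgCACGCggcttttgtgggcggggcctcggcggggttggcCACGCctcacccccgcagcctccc
Nr1i3: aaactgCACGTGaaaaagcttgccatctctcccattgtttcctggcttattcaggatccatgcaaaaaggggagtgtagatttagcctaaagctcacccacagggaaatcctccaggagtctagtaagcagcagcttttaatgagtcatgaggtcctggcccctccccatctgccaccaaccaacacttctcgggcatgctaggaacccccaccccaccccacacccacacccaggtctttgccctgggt
Cyp2a5: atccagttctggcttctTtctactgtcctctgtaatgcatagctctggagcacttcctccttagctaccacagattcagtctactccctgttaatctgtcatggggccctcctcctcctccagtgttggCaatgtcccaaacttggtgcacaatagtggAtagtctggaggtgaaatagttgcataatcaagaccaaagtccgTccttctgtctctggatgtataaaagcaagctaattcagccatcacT
Cyp2a4: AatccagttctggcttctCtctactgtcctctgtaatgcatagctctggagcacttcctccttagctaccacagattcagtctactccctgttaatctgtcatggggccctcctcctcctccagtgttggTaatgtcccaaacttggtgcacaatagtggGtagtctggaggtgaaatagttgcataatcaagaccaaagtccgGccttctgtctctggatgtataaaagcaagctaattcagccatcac

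The D-box TTATGTAA, a site of PAR bZIP factors, was in 0 of the 36 member promoters and in 0.819% of all promoters, and its variant TTACGTAA was in 0 and in 0.113%. The nuclear receptor half-site AGGTCA was in 9 of 36 member promoters, among them those of Cyp2c29, Cyp2f2 and Cyp3a11, and in 14% of all promoters. Each search covered both strands of the same window. These are matches of letters in a short window and not evidence of binding.

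The library method reads 1 tag at the 3′ end of a transcript, so levels are not scaled by length and RPM can be compared between genes. Depth was 0.706 to 14.3 M reads per library in the first table (median 8.51) and 4.85 to 10.1 in the second (median 7.71), with 3 libraries below 3 M. They were uninjected BMKO libraries at ZT 6 (2.81 M) and ZT 22 (2.18 M) and a WT library with rapamycin at ZT 22 (0.706 M). Their median correlations with the other libraries, 0.7955, 0.8787 and 0.8845, were the lowest of the first table, where the median was 0.944. By 15 clock genes, 29 of 54 libraries of the BMKO arms and 8 of 228 of the other arms lay nearer to another time of their arm than to their own. Of those 8, 2 libraries of dusk AZD8055 at ZT 2 and 2 of ad libitum feeding, at ZT 10 and ZT 14, were over 2 times as far from their own time as from the nearest one, and were left out together as an alternative. The other 4 were below that ratio. Without the 4 past it 3 of the 86 calls they enter were lost, those of Cyp2a22, Cyp2a4 and Cyp2j9 with ad libitum feeding. Tsc1 averaged 7.24 RPM in TSKO liver and 14.6 RPM in Albumin-Cre liver, and Rptor 5.09 RPM in RPKO liver and 8.88 RPM in Albumin-Cre liver. Arntl, the gene of BMAL1, averaged 10.4 RPM in BMKO liver and 13.02 RPM in WT liver without injection. The order was the other way with vehicle, at 13.7 RPM in BMKO liver and 9.01 RPM in WT liver, and with rapamycin, at 12.4 RPM in BMKO liver and 7.08 RPM in WT liver, and a 3′ tag outside the deleted part checks nothing. Because these are bulk samples, fewer cells of a type and less RNA per cell cannot be told apart. Of the members, 19 share 50-base stretches of their last 300 bases with another gene, most of all Cyp2c40 (53.8% of windows) and Cyp2c67 (45.4%), and Cyp2a4 shares 22.3% with Cyp2a5. Cyp2e1 shares 33.9%, mostly with Fcho2 and other genes that are no P450. Values of all these genes are uncertain to that extent, those of Cyp2e1 below included. Mean ± SD below are over the libraries of an arm with the SD taken within times, ± beside a log2 difference is its SE, a difference is negative where the first-named group was lower, and a difference is called where the limma p adjusted over all genes was under 0.05.

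The 39 P450 transcripts summed to 13682 ± 1429 RPM in BMKO liver and to 12833 ± 1278 RPM in WT liver (n = 18 each), and over the 13 arms of the first table the mean sum ran between 11476 RPM with ad libitum feeding and 14769 RPM in BMKO liver with vehicle. A few genes made up much of it. In BMKO liver Cyp2c29, an arachidonic acid epoxygenase, gave 22.7% of the sum, Cyp2e1, which oxidises ethanol and acetaminophen, gave 19.2% and Cyp2d9 gave 9.07%. In night-fed WT liver the leading genes were Cyp2e1 at 17.7%, Cyp3a11 at 14.5% and Cyp2c29 at 14.4%. The 3 tunicamycin arms, scaled in a separate table, had mean sums of 9629.6 to 10124 RPM.

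Por (chr5:135670033-135735326, plus strand, GRCm38) was rhythmic in 14 of 16 arms, more than any other member, and its daily wave was smaller and displaced in BMKO liver. The 3 BMKO libraries had 125, 138 and 84.6 RPM at ZT 10 and 159.9, 94.6 and 175 RPM at ZT 14, against 439.6, 437 and 290.0 RPM at ZT 10 and 429, 396 and 394 RPM at ZT 14 in WT liver. At ZT 2 it had 236, 117 and 199 RPM in BMKO liver and 77.6, 124 and 62.8 RPM in WT liver. Every BMKO library lay below every WT library at ZT 10 and ZT 14, and the groups overlapped at ZT 2. The fitted 24 h wave of Por had an amplitude of 0.50 (log2, from the mean to the peak) with its peak at ZT 19.98 ± 0.915 in BMKO liver and of 1.21 with its peak at ZT 12.6 ± 0.319 in WT liver (SE). The difference between the waves, as the length of the vector between them, was 1.46 ± 0.18 (limma adjusted p = 3.57e-08). No other member had a rhythm difference in that comparison, where 3.05% of all genes did. The rhythm of Por within BMKO liver itself had a limma adjusted p = 0.0438 and was lost under 6 of 11 alternative settings (p up to 0.311).

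The comparison with vehicle used other libraries and gave a like difference for Por. At ZT 14 the libraries had 182, 70.4 and 69.7 RPM in BMKO liver and 748, 985 and 649 RPM in WT liver, without overlap. The waves differed by 1.66 ± 0.18 (limma adjusted p = 5.53e-10), with an amplitude of 0.38 in BMKO liver, which did not pass the test for a rhythm, and of 1.48 with its peak at ZT 13.7 ± 0.262 in WT liver. Again no other member had a rhythm difference, with 1.75% of all genes called. The daily mean of Por was lower in BMKO liver by -0.44 ± 0.13 without injection (147 ± 41.03 RPM in BMKO liver and 226 ± 46.5 RPM in WT liver, limma adjusted p = 0.00189) and by -1.09 ± 0.13 with vehicle (105 ± 43.3 RPM in BMKO liver and 287 ± 84.1 RPM in WT liver, limma adjusted p = 5.89e-11). The daily difference without injection was lost without the libraries numbered 2 (limma adjusted p = 0.0876).

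**Figure D1:**
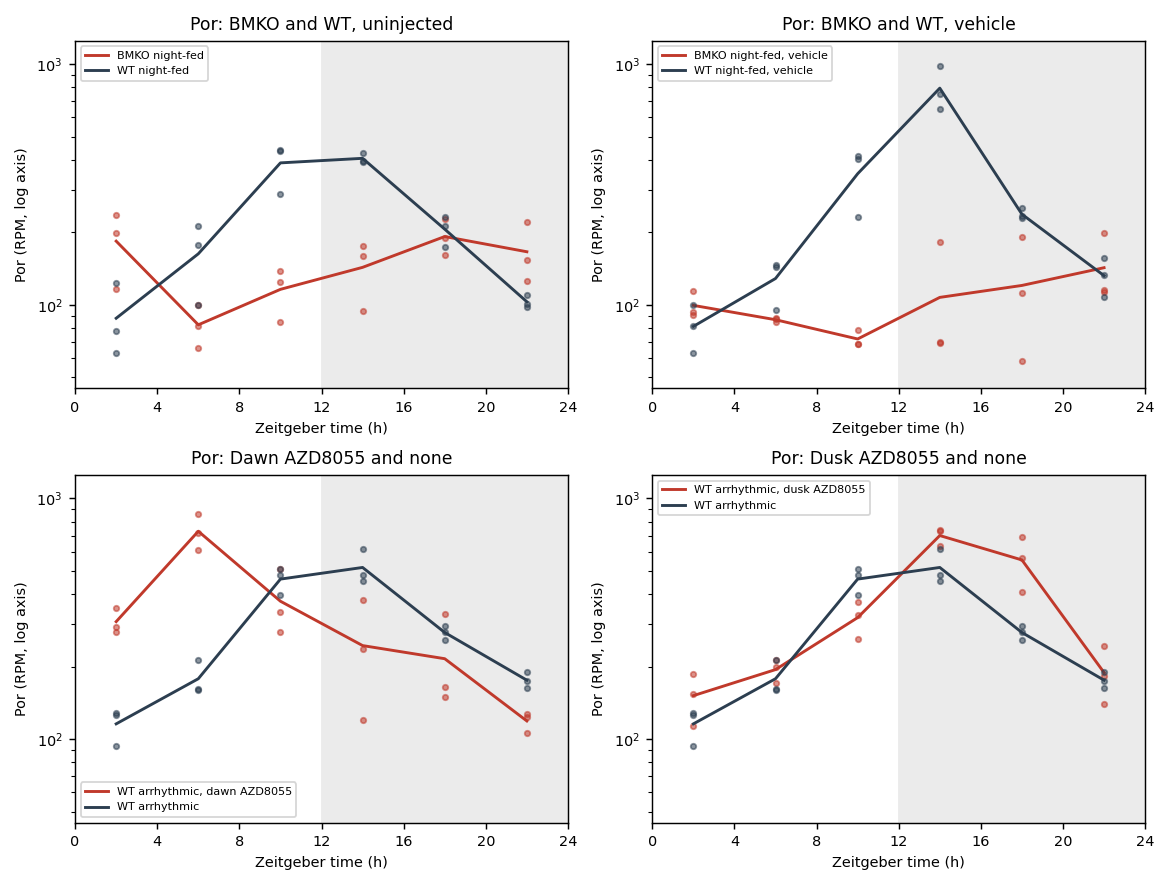
Level of Por (RPM, log axis) by zeitgeber time (h), with a point for each library and a line through the time means; grey marks the dark phase. In BMKO liver the ZT 10 and ZT 14 libraries lie below the WT libraries of the same times, and Por stands highest at ZT 6 with dawn AZD8055 (mean 729 RPM) and at ZT 14 without it (mean 516 RPM).

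With AZD8055 at dawn the peak of Por lay in the light phase. At ZT 6 Por had 864, 608 and 716 RPM with dawn AZD8055 and 213, 161 and 160.0 RPM without it, and at ZT 14 it had 377, 120.3 and 236 RPM with the drug and 479, 453 and 616 RPM without it. The groups did not overlap at either time, and the direction was opposite at ZT 6 and ZT 14. The peak stood at ZT 7.26 ± 0.518 with dawn AZD8055 and at ZT 13.2 ± 0.223 without it, the amplitudes were 1.01 and 1.08, and the waves differed by 1.48 ± 0.16 (limma adjusted p = 2.79e-08). With AZD8055 at dusk Por peaked at ZT 14.7 ± 0.313 with an amplitude of 1.14, and its wave was not called different from that of undosed liver. In the 12 arms with Bmal1 intact other than dawn AZD8055, the peak of Por lay between ZT 12.6 and ZT 15.2 and its amplitude between 0.92 and 1.48.

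Both receptor genes were rhythmic with smaller waves, Nr1i3 (chr1:171213970-171220701, plus strand) in 10 arms and Nr1i2 (chr16:38248323-38294824, minus strand) in 9. In night-fed WT liver Nr1i3 had 149.8, 135 and 86.6 RPM at ZT 10 and 72.4, 61.01 and 33.7 RPM at ZT 22. Its amplitude there was 0.58 with the peak at ZT 12.1 ± 0.758 (limma adjusted p = 0.00355, and up to 0.0633 over the alternative settings). In TSKO liver Nr1i3 had an amplitude of 0.82 and its peak at ZT 15.2 ± 0.539. In BMKO liver it peaked at ZT 9.38 ± 0.723 with an amplitude of 0.53 (limma adjusted p = 0.00963, and up to 0.328 over the alternative settings), and the wave was not called different from that of WT liver.

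The time pattern of Nr1i2 differed with dawn AZD8055. At ZT 2 Nr1i2 had 121, 62.8 and 76.5 RPM with dawn AZD8055 and 36.7, 44.6 and 44.3 RPM without it, and at ZT 10 it had 33.2, 31.1 and 41.2 RPM with the drug and 95.6, 74.3 and 72.2 RPM without it. The dosed libraries were all higher at ZT 2 and all lower at ZT 10. The waves of Nr1i2 differed by 0.76 ± 0.16 (limma adjusted p = 0.00222). The wave with dawn AZD8055 itself, with a fitted amplitude of 0.37 and peak at ZT 1.11 ± 1.14, was not called rhythmic (limma adjusted p = 0.0583), while that without the drug was, with an amplitude of 0.39 and the peak at ZT 13.4 ± 0.653 (limma adjusted p = 0.0033).

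Daily means of the receptors differed between feeding schedules, Nr1i2 upwards and Nr1i3 downwards. Nr1i2 had a lowest, median and highest value of 36.7, 60.3 and 95.6 RPM with arrhythmic feeding, of 37.6, 62.1 and 94.9 RPM with ad libitum feeding and of 16.7, 29.6 and 64.2 RPM with night feeding. The ranges overlapped, and the daily mean was higher by 0.78 ± 0.10 with arrhythmic feeding (limma adjusted p = 6.01e-08) and by 0.85 ± 0.10 with ad libitum feeding (limma adjusted p = 4.5e-09). Nr1i3 was lower by -0.47 ± 0.10 with arrhythmic feeding (57.2 ± 11.8 RPM against 82.9 ± 21.5 RPM with night feeding, limma adjusted p = 0.00022, and 0.0761 without the libraries numbered 2). With ad libitum feeding Nr1i3 was lower by -0.39 ± 0.10 (61.3 ± 10.9 RPM, limma adjusted p = 0.0013, and up to 0.0539 without the libraries numbered 1 or those numbered 2). Night-fed WT liver serves both comparisons, and its mean of Nr1i2, 36.2 RPM, lay below those of the other WT arms of the first table, 61.1 to 76.7 RPM, and of Albumin-Cre liver, 52.8 RPM.

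**Figure D2:**
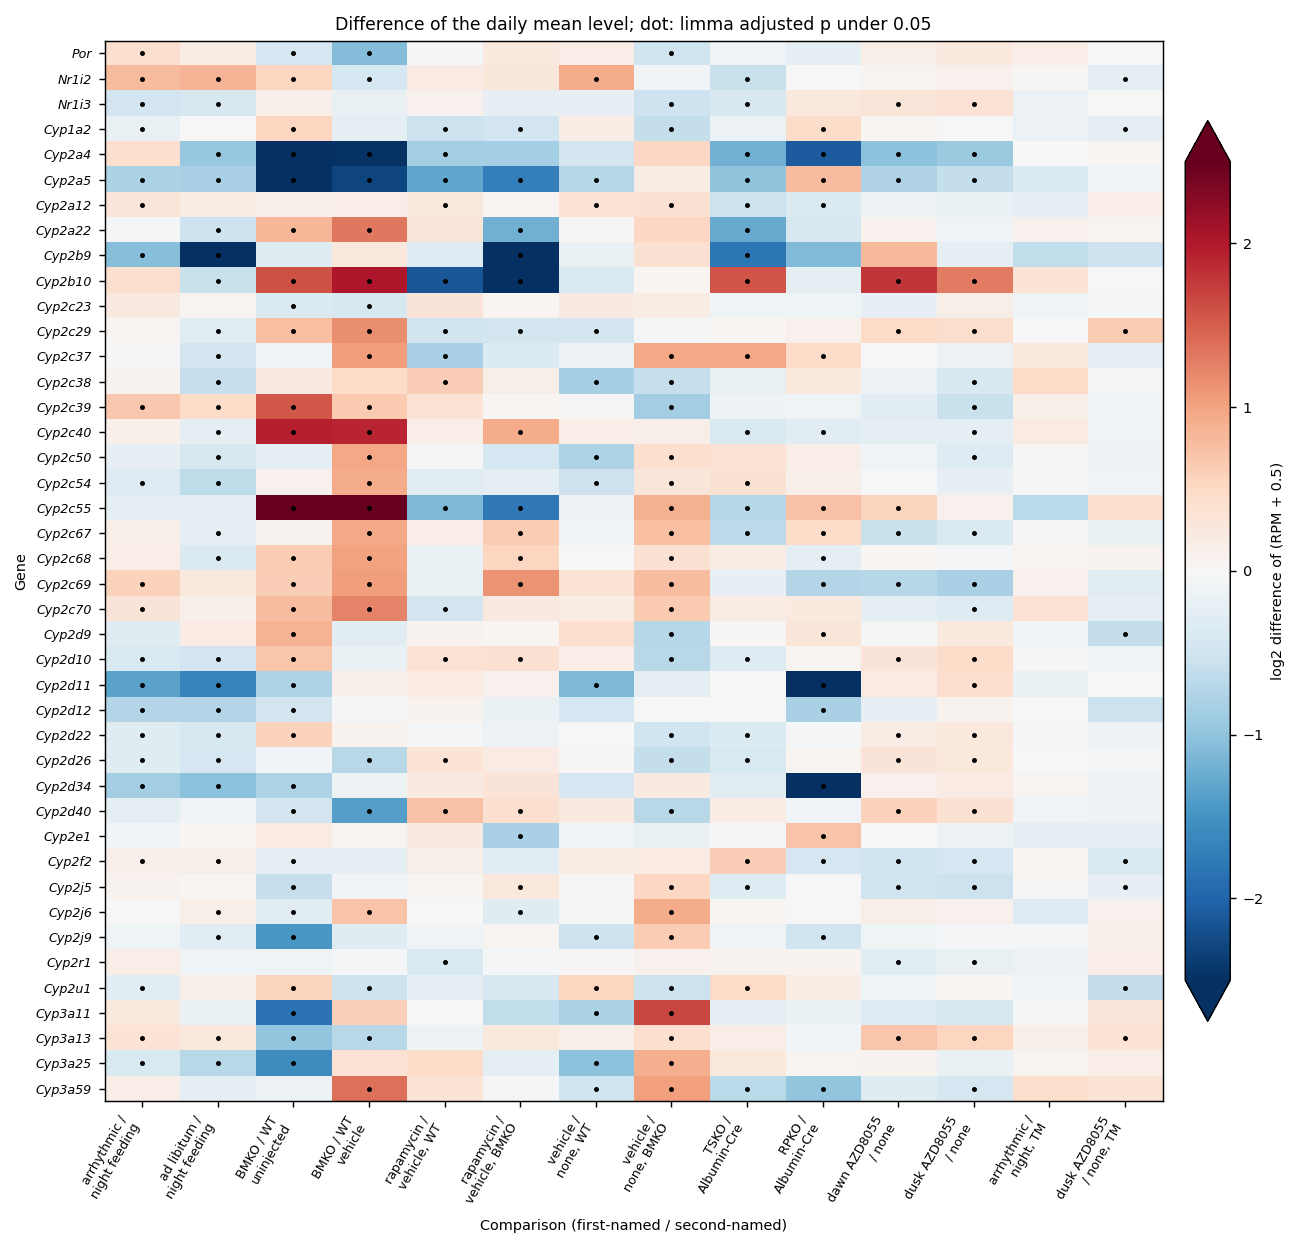
Log2 difference of the daily mean (first-named over second-named group) for the 42 members in 14 comparisons, with a dot where the limma adjusted p was under 0.05. Cyp2a4 and Cyp2a5 are lower and Cyp2b10, Cyp2c40 and Cyp2c55 higher in both comparisons of BMKO with WT liver, and no member has a dot in the comparison of feeding under tunicamycin (TM).

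Cyp2a4 and Cyp2a5 transcripts were lower and Cyp2b10 and many Cyp2c transcripts higher in BMKO liver. Without injection 30 of 42 members differed from WT, 15 higher and 15 lower, where 71.7% (34.3% higher and 37.4% lower) of all genes were called. With vehicle 24 differed, 15 higher and 9 lower, where 21.7% (9.93% higher and 11.8% lower) of all genes were called. The median difference over the members was 0.02 without injection and 0.10 with vehicle, beside -0.06 and -0.01 over all genes. The comparisons share no library, and 18 members were called in both, 15 of them in the same direction, which is 50% of those called without injection and 62.5% of those called with vehicle. Without injection 71.4% of the members were called, so by that share alone most of those called with vehicle would be called in both. The overlap over all genes was not counted. The 9 higher in both were Cyp2b10, Cyp2c40, Cyp2a22, Cyp2c29, Cyp2c69, Cyp2c70, Cyp2c55, Cyp2c39 and Cyp2c68, and the 6 lower in both were Cyp2c23, Cyp2a5, Cyp2a4, Cyp3a13, Cyp2d40 and Por. Opposite directions were called for Cyp2u1, Cyp2j6 and Nr1i2. With the deposited scaling the split with vehicle was 24 higher and 6 lower, on a scale where the median of all genes was 0.31.

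Cyp2a5 (chr7:26835305-26843548, plus strand), the coumarin and nicotine hydroxylase, was among the genes with the widest gap. Its lowest, median and highest values were 6.40, 36.2 and 89.4 RPM in BMKO liver and 106, 416 and 958 RPM in WT liver. No BMKO library reached the lowest WT library. The log2 difference was -3.19 ± 0.26 without injection (limma adjusted p = 1.34e-18) and -2.29 ± 0.26 with vehicle (43.7 ± 15.5 RPM in BMKO liver and 248 ± 122 RPM in WT liver, limma adjusted p = 1.44e-11). Cyp2a4 (chr7:26307169-26315088, plus strand), a steroid hydroxylase and close copy of Cyp2a5, averaged 0.637 ± 0.637 RPM in BMKO liver and 17.05 ± 19.8 RPM in WT liver without injection, with no overlap, and 1.13 ± 0.814 RPM in BMKO liver and 9.83 ± 7.47 RPM in WT liver with vehicle. Its log2 differences were -3.45 ± 0.31 and -2.48 ± 0.31. Cyp2a5 was rhythmic in 11 of 16 arms and in none of the 3 BMKO arms, nor in RPKO liver or with dawn AZD8055. Its wave was not called different between BMKO and WT liver in either comparison.

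Cyp2b10 (chr7:25897620-25926624, plus strand), the classic CAR target, had a lowest, median and highest value of 12.6, 46.1 and 88.7 RPM in BMKO liver and of 4.93, 16.1 and 41.2 RPM in WT liver. The ranges overlapped. The log2 difference was 1.601 ± 0.26 without injection (limma adjusted p = 8.74e-08) and 2.02 ± 0.26 with vehicle (limma adjusted p = 9.24e-10). Cyp2c55 (chr19:39007019-39042693, plus strand), which hydroxylates arachidonic acid, averaged 24.5 ± 8.35 RPM in BMKO liver and 3.80 ± 2.12 RPM in WT liver without injection (2.56 ± 0.21, limma adjusted p = 1.03e-18). With vehicle its ranges did not overlap, at 13.6 to 96.5 RPM in BMKO liver and 0.826 to 10.03 RPM in WT liver (3.57 ± 0.21, limma adjusted p = 1.58e-25). Cyp2c40 was higher by 1.93 ± 0.20 without injection (261 ± 149 RPM in BMKO liver and 59.8 ± 18.3 RPM in WT liver) and by 1.91 ± 0.20 with vehicle. Cyp2c29 (chr19:39269405-39330713, plus strand) was higher by 0.76 ± 0.11 without injection (3106 ± 496 RPM in BMKO liver and 1853 ± 355 RPM in WT liver) and by 1.17 ± 0.11 with vehicle (3042 ± 516 RPM in BMKO liver and 1373 ± 427 RPM in WT liver). Of the 13 Cyp2c genes 7 were higher and 1 lower without injection, and 11 higher and 1 lower with vehicle. Of all genes 34.3% were higher and 37.4% lower without injection, and 9.93% higher and 11.8% lower with vehicle. Cyp2c40, Cyp2c67, Cyp2c68 and Cyp2c69 share 23.1% to 53.8% of their windows with others of this group, so their calls may not be separate.

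Some cell marker sums, which follow their most abundant genes, also stood apart between the genotypes. Without injection the 8 summed hepatocyte markers, none at 0, had 40820 to 53310 RPM in BMKO liver (median 45420) and 63020 to 83670 RPM in WT liver (median 71970), without overlap. The 10 sinusoidal endothelial markers summed to 181 to 261 RPM in BMKO liver and 282 to 401 RPM in WT liver. Of these 10 genes 3 were higher and 6 lower, where 71.7% (34.3% higher and 37.4% lower) of all genes were called. The cholangiocyte markers summed to 48.2 to 88.9 RPM in BMKO liver and 12.1 to 46.6 RPM in WT liver. With vehicle the hepatocyte markers summed to 27140 to 58340 RPM in BMKO liver (median 37430) and 62210 to 102600 RPM in WT liver (median 74940), again without overlap. By gene, 0 of the 8 were higher and 2 lower, a count near the 21.7% (9.93% higher and 11.8% lower) of all genes called with vehicle. The sinusoidal endothelial markers then overlapped, at 244 to 352 RPM in BMKO liver and 282 to 386 RPM in WT liver, and so did the cholangiocyte markers, at 41.6 to 79.6 RPM in BMKO liver and 16.2 to 91.96 RPM in WT liver. The part of these markers in the P450 differences was not tested.

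**Figure D3:**
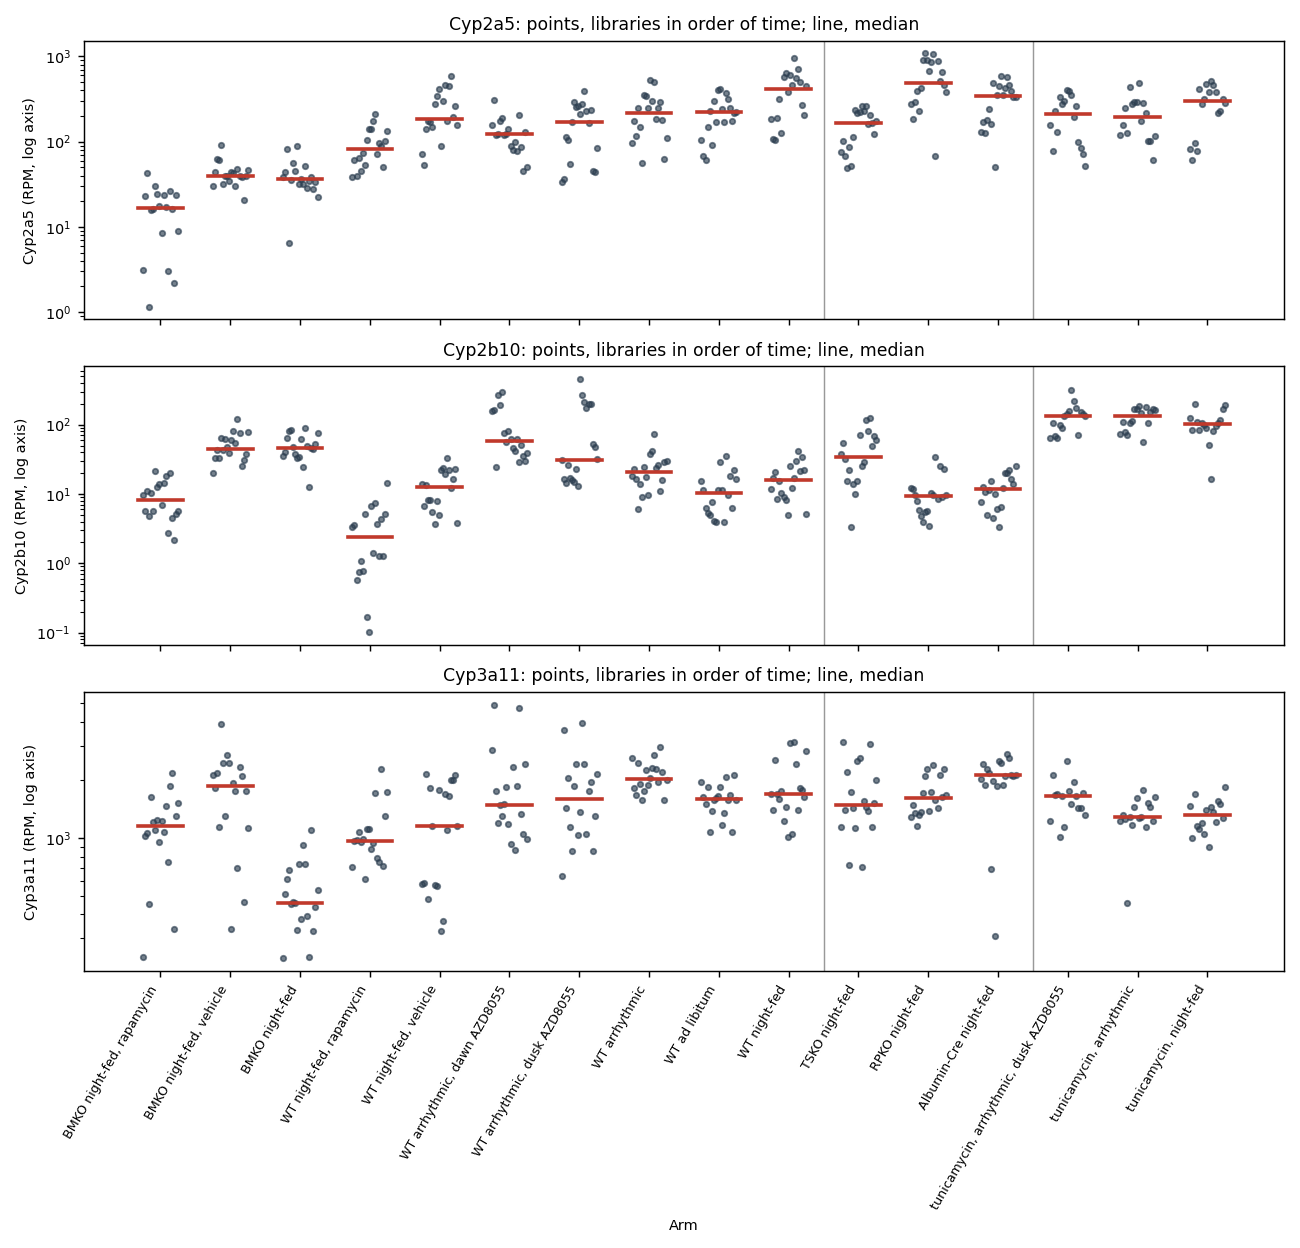
Levels of Cyp2a5, Cyp2b10 and Cyp3a11 (RPM, log axis) in every library of the 16 arms; the line marks the median, and vertical lines separate the liver knockouts with their control and the tunicamycin table. The medians of Cyp2a5 in BMKO liver with rapamycin, with vehicle and without injection (16.8, 39.9 and 36.2 RPM) lie below those of all other arms, and Cyp2b10 has its lowest median with rapamycin in WT liver (2.36 RPM).

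Cyp3a11 (chr5:145854426-145879964, minus strand), a main PXR target and steroid and drug oxidase, differed with vehicle in opposite directions in the 2 genotypes. It had a lowest, median and highest value of 335, 1872 and 3897 RPM in BMKO liver with vehicle and of 237, 461 and 1103 RPM in BMKO liver without injection, a log2 difference of 1.67 ± 0.24 (limma adjusted p = 1.26e-08). In WT liver the values were 328, 1153 and 2150.1 RPM with vehicle and 1008, 1695 and 3151 RPM without injection, a difference of -0.78 ± 0.24 (limma adjusted p = 0.0117, and up to 0.17 over the alternative settings, lost without the libraries numbered 1 or those numbered 2). The ranges overlapped within both genotypes. The interaction of vehicle and genotype was 2.46 ± 0.35 (limma adjusted p = 6.73e-09). Between genotypes Cyp3a11 was lower in BMKO liver without injection, by -1.85 ± 0.24 (529.8 ± 256 RPM in BMKO liver and 1862 ± 652 RPM in WT liver, limma adjusted p = 3.13e-10), and was not called different with vehicle (0.60, 1808 ± 862 RPM in BMKO liver and 1227 ± 688 RPM in WT liver, limma adjusted p = 0.0667). Cyp3a25, of the same subfamily, had an interaction of 1.94 ± 0.34 (limma adjusted p = 1.14e-06) and was lower in BMKO liver without injection by -1.58 ± 0.24, at 68.6 to 223 RPM in BMKO liver and 248 to 608 RPM in WT liver without overlap.

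Vehicle against no injection gave 27 of 42 members called in BMKO liver, 16 higher and 11 lower, where 60.4% (31.4% higher and 29.1% lower) of all genes were called, and 13 in WT liver, 3 higher and 10 lower, where 27.3% (15.4% higher and 11.8% lower) were called. The count in WT liver was 6 without the libraries numbered 1 and 8 without those numbered 2. With the deposited scaling the split in BMKO liver was 23 higher and 7 lower, with the median of all genes at 0.31. The interaction of vehicle and genotype was called for 27 members, 17 positive and 10 negative, where 57.2% (28.7% higher and 28.5% lower) of all genes were called, and the deposited scaling gave 27 higher and 6 lower, with the median of all genes at 0.43. Cyp2d9 (chr15:82433437-82456845, plus strand), a male-biased steroid hydroxylase of mouse, had an interaction of -1.14 ± 0.26, with 769.7 ± 314 RPM in BMKO liver with vehicle and 1241 ± 413 RPM in BMKO liver without it. The sources used here do not say whether vehicle and uninjected mice were kept or sequenced together, so injection and any other difference between those groups cannot be told apart.

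Rapamycin lowered Cyp2b10 and Cyp2a5 in both genotypes. In BMKO liver 16 of 42 members were called, 7 higher and 9 lower, where 11.9% (6.32% higher and 5.54% lower) of all genes were called, and in WT liver 14, 5 higher and 9 lower, where 18.5% (9.76% higher and 8.73% lower) were called. Of the members 38.1% were called in BMKO liver and 33.3% in WT liver, and the overlap over all genes was not counted. These comparisons share no library, and 7 members were called in both, all in the same direction, which is 43.8% of those in BMKO liver and 50% of those in WT liver. Cyp1a2, Cyp2a5, Cyp2b10, Cyp2c29 and Cyp2c55 were lower, and Cyp2d10 and Cyp2d40 higher. Leaving out a replicate number lost Cyp2d10 in both genotypes (limma adjusted p up to 0.168 in BMKO liver and 0.567 in WT liver), Cyp2d40 in BMKO liver (up to 0.17) and Cyp2c29 in WT liver (up to 0.093), and without the libraries numbered 3 the count in WT liver was 9. Cyp2b10 had a lowest, median and highest value of 2.14, 8.24 and 21.2 RPM with rapamycin and 20.2, 45.1 and 122 RPM with vehicle in BMKO liver, and of 0.101, 2.36 and 14.5 RPM with rapamycin and 3.70, 12.7 and 32.7 RPM with vehicle in WT liver. The ranges overlapped in both genotypes. The log2 differences were -2.49 ± 0.26 in BMKO liver (limma adjusted p = 3.48e-11) and -2.14 ± 0.26 in WT liver (limma adjusted p = 2.69e-09).

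Cyp2a5 averaged 16.9 ± 11.8 RPM with rapamycin and 43.7 ± 15.5 RPM with vehicle in BMKO liver (-1.71 ± 0.26, limma adjusted p = 1.48e-06), and 94.2 ± 30.5 RPM with rapamycin and 248 ± 122 RPM with vehicle in WT liver (-1.30 ± 0.26, limma adjusted p = 0.000167). Cyp2c55 was lower by -1.79 ± 0.21 in BMKO liver and -1.13 ± 0.21 in WT liver. Cyp1a2 (chr9:57676937-57683703, minus strand), which oxidises caffeine and aromatic amines, was lower by -0.48 ± 0.12 in BMKO liver (299 ± 79.4 RPM with rapamycin and 407 ± 61.7 RPM with vehicle, limma adjusted p = 0.00267, and 0.0959 without the libraries numbered 2) and by -0.54 ± 0.12 in WT liver (343 ± 96.5 RPM with rapamycin and 494 ± 150.2 RPM with vehicle, limma adjusted p = 0.000473).

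The effect of rapamycin on Cyp2e1 (chr7:140763739-140774987, plus strand) depended on genotype. Cyp2e1 had a lowest, median and highest value of 462, 1437 and 2485 RPM with rapamycin and 1366, 2321 and 2998 RPM with vehicle in BMKO liver (-0.80 ± 0.14, limma adjusted p = 4.63e-05), and of 1405, 2656 and 4021 RPM with rapamycin and 939.5, 2228 and 3855 RPM with vehicle in WT liver, where it was not called different. The interaction for Cyp2e1 was -1.03 ± 0.20 (limma adjusted p = 0.000767), 1 of 7 members with an interaction of rapamycin and genotype, where 14.2% (7.85% higher and 6.39% lower) of all genes were called. The other 6, Cyp2a22, Cyp2b9, Cyp2c67, Cyp2c68, Cyp2c69 and Cyp2c70, were lost without the libraries numbered 1.

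Loss of Tsc1 in liver changed 20 of 42 members, 5 higher and 15 lower, where 36.6% (18.7% higher and 17.9% lower) of all genes were called, and loss of Raptor changed 18, 7 higher and 11 lower, where 42.5% (19.4% higher and 23.1% lower) were called. The median over the members was -0.12 in TSKO liver and -0.03 in RPKO liver, beside 0.00 and -0.01 over all genes. Both knockouts are set against the same Albumin-Cre libraries. In RPKO liver the deposited scaling gave 4 higher and 22 lower, with the median of all genes at -0.23.

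In TSKO liver 4 of the 4 Cyp2a genes were lower and Cyp2b10 was higher. Cyp2b10 had a lowest, median and highest value of 3.39, 34.4 and 126 RPM in TSKO liver and of 3.33, 11.7 and 25.3 RPM in Albumin-Cre liver, and the ranges overlapped (1.58 ± 0.20, limma adjusted p = 1.9e-08). At ZT 18 the values were 117, 81.7 and 126 RPM in TSKO liver and 19.8, 19.8 and 22.4 RPM in Albumin-Cre liver, without overlap. Cyp2a5 averaged 156 ± 38.3 RPM in TSKO liver and 324 ± 111 RPM in Albumin-Cre liver (-1.004 ± 0.22, limma adjusted p = 0.000255). Cyp2a12 was lower by -0.54 ± 0.07, Cyp2a4 by -1.20 ± 0.26 and Cyp2a22 by -1.26 ± 0.23. Cyp2f2 (chr7:27119909-27133660, plus strand), a naphthalene-oxidising enzyme, had a lowest, median and highest value of 912, 1267 and 1570.3 RPM in TSKO liver and of 615, 829 and 1043 RPM in Albumin-Cre liver (0.61 ± 0.07, limma adjusted p = 3.84e-10). Cyp2c37 was higher by 0.97 ± 0.14, at 252 ± 66.8 RPM in TSKO liver and 128 ± 46.7 RPM in Albumin-Cre liver. Nr1i2 was lower by -0.56 ± 0.12, at 35.5 ± 10.95 RPM in TSKO liver and 52.8 ± 15.7 RPM in Albumin-Cre liver.

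In RPKO liver Cyp2d11 (chr15:82389154-82394022, minus strand) and Cyp2d34 (chr15:82615965-82620946, minus strand) were nearly absent. Cyp2d11 had a lowest, median and highest value of 0.178, 0.986 and 2.21 RPM in RPKO liver and of 12.6, 16.2 and 22.3 RPM in Albumin-Cre liver, with no overlap (-3.50 ± 0.13, limma adjusted p = 6.73e-26). Cyp2d34 had 2 reads over the 18 RPKO libraries, 16 of which had none, and 388 reads over the 18 Albumin-Cre libraries. The ratio per read sequenced was 0.00651, with an exact 95% interval of 0.000786 to 0.0237 that covers counting error only. Of the last 300 bases, 29.1% of windows in Cyp2d11 and 23.5% in Cyp2d34 are shared with other Cyp2d genes, for both most of all with Cyp2d10, which was not called different in RPKO liver. In RPKO libraries alone some values did not divide into whole reads, in 197 genes with no member among them. Knockout and any difference in how the reads were handled therefore cannot be told apart here.

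Higher in RPKO liver was Cyp2e1, with a lowest, median and highest value of 2435, 3889.9 and 5339 RPM in RPKO liver and of 536, 2664 and 3445 RPM in Albumin-Cre liver (0.72 ± 0.13, limma adjusted p = 1.41e-05). Cyp1a2 was higher too, at 555 ± 77.1 RPM in RPKO liver and 403 ± 70.3 RPM in Albumin-Cre liver (0.46 ± 0.09, limma adjusted p = 1.86e-05). Cyp2f2 was lower, at 621 ± 56.5 RPM in RPKO liver and 829.7 ± 131 RPM in Albumin-Cre liver (-0.41 ± 0.07, limma adjusted p = 1.27e-06). The copies Cyp2a5 and Cyp2a4 differed in direction, and knockout and read handling cannot be told apart here either. Cyp2a5 averaged 572 ± 206 RPM in RPKO liver and 324 ± 111 RPM in Albumin-Cre liver (0.77 ± 0.22, limma adjusted p = 0.00352, and 0.12 without the libraries numbered 3), and Cyp2a4 averaged 3.38 ± 2.79 RPM in RPKO liver and 14.9 ± 7.71 RPM in Albumin-Cre liver (-2.08 ± 0.26, limma adjusted p = 6.2e-09).

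Against night feeding, 6 of the 8 Cyp2d genes were lower with arrhythmic feeding and 6 with ad libitum feeding, and none was higher. With arrhythmic feeding 21 of 42 members differed, 8 higher and 13 lower, where 44.0% (24.0% higher and 20.0% lower) of all genes were called, and with ad libitum feeding 27 differed, 5 higher and 22 lower, where 53.0% (28.6% higher and 24.4% lower) were called. The medians over the members were -0.01 and -0.25, beside 0.02 and 0.02 over all genes. Both use the same night-fed libraries, and without those numbered 2 the count with ad libitum feeding was 17. Cyp2d11 had a lowest, median and highest value of 4.84, 15.4 and 21.2 RPM with arrhythmic feeding, of 5.95, 10.8 and 16.6 RPM with ad libitum feeding and of 19.95, 42.3 and 52.98 RPM with night feeding. The ad libitum range did not overlap with the night-fed range, and the arrhythmic range did. Its log2 differences were -1.33 ± 0.11 (limma adjusted p = 4.76e-13) and -1.67 ± 0.11 (limma adjusted p = 1.55e-16). The mean of Cyp2d11 in night-fed WT liver, 37.6 RPM, stood above those of all other arms of the first table, which reached 21.6 RPM at most, the other night-fed arms included.

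Cyp2a5 was lower on both schedules, at 233 ± 78.9 RPM with arrhythmic feeding (-0.79 ± 0.17, limma adjusted p = 0.00018) and 219 ± 80.96 RPM with ad libitum feeding (-0.81 ± 0.17, limma adjusted p = 7.72e-05), against 408 ± 142 RPM with night feeding. Cyp2b9, known in mouse as a female-biased steroid hydroxylase, averaged 4.08 ± 4.62 RPM with ad libitum feeding and 29.2 ± 21.02 RPM with night feeding (-2.80 ± 0.42, limma adjusted p = 3.21e-07). Por was higher with arrhythmic feeding, at 287 ± 45.9 RPM, against 226 ± 46.5 RPM with night feeding (0.40 ± 0.09, limma adjusted p = 0.000441). Cyp3a13 was higher by 0.34 ± 0.06 with arrhythmic feeding, at 157 ± 14.9 RPM, against 126 ± 23.4 RPM with night feeding. A rhythm difference was called for 1 member with arrhythmic feeding, Cyp2c29, where 4.61% of all genes were called (limma adjusted p = 0.0467), and it was lost under 5 of 11 alternative settings (p up to 0.432). With ad libitum feeding limma called 0, where 0.854% of all genes were called, 5 members had an unadjusted p under 0.05 and edgeR called 0.

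Cyp2b10 was higher with AZD8055, at different times for the dawn and the dusk dose. With dawn AZD8055 the daily mean of 16 of 42 members differed, 9 higher and 7 lower, where 41.0% (20.9% higher and 20.2% lower) of all genes were called. With the dusk dose 22 differed, 9 higher and 13 lower, where 50.8% (26.8% higher and 23.9% lower) were called. Both use the same undosed libraries, and without the libraries numbered 1 the count with dusk AZD8055 was 14. No arm of either experiment is labelled as given the vehicle of AZD8055, so drug, vehicle and handling cannot be told apart. With the deposited scaling the split with dusk AZD8055 was 11 higher and 8 lower. At ZT 6 Cyp2b10 had 272, 192 and 292 RPM with dawn AZD8055, 26.1, 17.2 and 15.6 RPM with dusk AZD8055 and 6.10, 13.7 and 9.09 RPM without AZD8055. At ZT 14 it had 62.8, 46.8 and 42.2 RPM with dawn AZD8055, 453, 265 and 214 RPM with dusk AZD8055 and 37.3, 41.3 and 72.9 RPM without it. The dawn dose stood clear of undosed liver at ZT 6 and overlapped with it at ZT 14, and the dusk dose stood clear at both times.

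The fitted peak of Cyp2b10 was at ZT 6.24 ± 0.67 with dawn AZD8055, at ZT 16.6 ± 0.228 with dusk AZD8055 and at ZT 16.8 ± 0.856 without it, with amplitudes of 1.12, 2.10 and 0.69. The waves differed from undosed liver by 1.77 ± 0.25 with dawn AZD8055 (limma adjusted p = 9.65e-06) and by 1.41 ± 0.25 with dusk AZD8055 (limma adjusted p = 0.00138, and 0.105 without the libraries numbered 2). The daily mean was higher by 1.78 ± 0.18 with dawn AZD8055 (95.03 ± 39.6 RPM, limma adjusted p = 1.55e-10) and by 1.29 ± 0.18 with dusk AZD8055 (100.2 ± 52.2 RPM, limma adjusted p = 1.04e-07), against 23.7 ± 9.94 RPM without it.

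**Figure D4:**
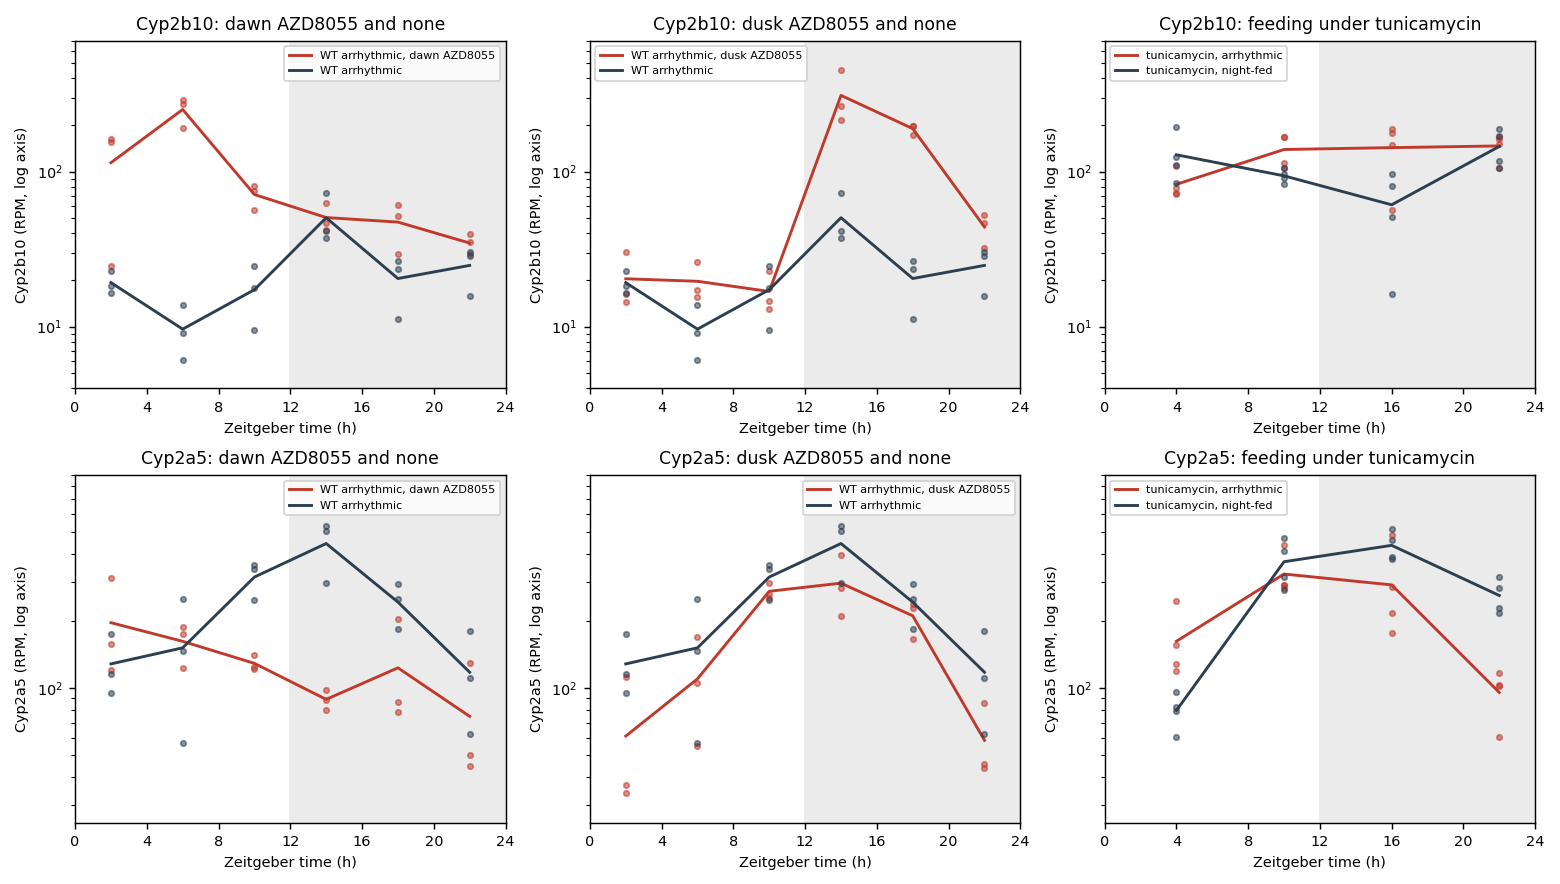
Levels of Cyp2b10 and Cyp2a5 (RPM, log axis) by zeitgeber time (h) with AZD8055 at dawn or dusk beside undosed arrhythmically fed liver, and by feeding schedule under tunicamycin; points are libraries, lines join the time means and grey marks the dark phase. Cyp2b10 stands highest at ZT 6 with dawn AZD8055 (mean 252 RPM) and at ZT 14 with dusk AZD8055 (mean 311 RPM), and at ZT 14 Cyp2a5 is low with dawn AZD8055 (mean 89.0 RPM) and high without it (mean 444 RPM).

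Cyp2a5 had no evening peak with dawn AZD8055. At ZT 10 it had 121, 125 and 141 RPM with dawn AZD8055 and 354, 339.8 and 248 RPM without it, and at ZT 14 it had 88.8, 79.7 and 98.5 RPM with the drug and 531, 296 and 504 RPM without it. The groups did not overlap at either time. The waves differed by 1.29 ± 0.26 (limma adjusted p = 0.00175), and the rhythm of Cyp2a5 with dawn AZD8055, of amplitude 0.50, was not called. The daily mean was lower by -0.75 ± 0.19 with dawn AZD8055 (limma adjusted p = 0.00127, and 0.134 without the libraries numbered 1) and by -0.59 ± 0.19 with dusk AZD8055 (limma adjusted p = 0.00743, and up to 0.219 without the libraries numbered 1 or those numbered 2). With dawn AZD8055 the rhythm of 10 members differed, where 14.7% of all genes were called. Por, Cyp2b10, Cyp2a5 and Nr1i2 were called under all 11 alternative settings, and Cyp2c68, Cyp2d26, Cyp2r1, Cyp2u1, Cyp3a13 and Cyp3a59 were each lost under 2 to 5 of them, at least 2 of which left out a replicate number. With dusk AZD8055 the rhythm differed for 2 members, Cyp2b10 and Cyp2r1, a vitamin D hydroxylase, where 5.73% of all genes were called, and Cyp2r1 was lost with each replicate number left out in turn (p up to 0.162).

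Several members had the same direction with both doses. Cyp3a13 was higher by 0.70 ± 0.07 with dawn AZD8055 (259.7 ± 46.1 RPM, limma adjusted p = 4.32e-11) and by 0.54 ± 0.07 with dusk AZD8055 (233 ± 30.1 RPM, limma adjusted p = 9.78e-09), against 157 ± 14.9 RPM without it. Cyp2c29 was higher by 0.50 ± 0.09 with dawn AZD8055 (2715 ± 595 RPM) and by 0.43 ± 0.09 with dusk AZD8055 (2592 ± 503 RPM), against 1907 ± 193 RPM. Cyp2j5, an arachidonic acid epoxygenase, was lower by -0.51 ± 0.06 with dawn AZD8055 (390.1 ± 65.1 RPM) and by -0.54 ± 0.06 with dusk AZD8055 (377 ± 36.97 RPM), against 544 ± 36.3 RPM, with no overlap for dusk AZD8055. Cyp2f2 was lower by -0.51 ± 0.10 with dawn AZD8055 (562 ± 124 RPM) and by -0.43 ± 0.10 with dusk AZD8055 (596 ± 163 RPM), against 782 ± 106 RPM. Of the 8 Cyp2d genes 4 were higher with dawn and 5 with dusk AZD8055, and none was lower. Beside these values, 17 of 18 acute phase genes of liver were higher with dawn and 17 with dusk AZD8055, with medians of 2.18 and 2.10. Of all genes 20.9% were higher with dawn and 26.8% with dusk AZD8055. Of 12 Kupffer cell markers 4 were higher with dawn and 6 with dusk AZD8055, and their sum was 237 to 551 RPM with dawn AZD8055, 237 to 545 RPM with dusk AZD8055 and 228 to 391 RPM without it. The part of either list in the P450 differences was not tested.

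Under tunicamycin limma called 0 members in daily mean between arrhythmic and night feeding, where 0.555% (0.245% higher and 0.31% lower) of all genes were called, while 9 members had an unadjusted p under 0.05 and edgeR and DESeq2 called 1 and 1. This table was scaled separately, and no test was made against liver without tunicamycin. Cyp2a5 had 119, 156, 246 and 128 RPM at ZT 4 and 103, 102, 60.4 and 117 RPM at ZT 22 with arrhythmic feeding, against 82.6, 60.4, 95.8 and 78.7 RPM at ZT 4 and 217, 227, 313 and 281 RPM at ZT 22 with night feeding. Arrhythmically fed libraries were all higher at ZT 4 and all lower at ZT 22. The peak of Cyp2a5 was at ZT 11.6 ± 0.536 with arrhythmic and at ZT 15.3 ± 0.265 with night feeding, and the waves differed by 1.05 ± 0.19 (limma adjusted p = 0.00116). Rhythm differences were called for 5 members in all, where 4.36% of all genes were called, and the other 4, Por, Cyp2b10, Cyp2c29 and Nr1i3, were each lost under 2 to 4 of 11 alternative settings, all of them leaving out a replicate. Por had amplitudes of 0.92 with arrhythmic and 1.48 with night feeding (limma adjusted p = 0.00146, and up to 0.0741). Cyp2c29 at ZT 16 had 919, 994, 879 and 808 RPM with arrhythmic feeding and 696, 626, 603 and 415 RPM with night feeding, without overlap.

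With dusk AZD8055 under tunicamycin 8 members differed, 2 higher and 6 lower, where 8.85% (4.19% higher and 4.66% lower) of all genes were called. The counts were 5 and 4 without the libraries numbered 3 and those numbered 4. Cyp2c29 had a lowest, median and highest value of 1043, 1369.7 and 2321 RPM with AZD8055 and of 543, 947 and 1073 RPM without it (0.64 ± 0.09, limma adjusted p = 1.58e-06). Cyp3a13 averaged 251 ± 34.8 RPM with AZD8055 and 199.6 ± 33.8 RPM without it (0.34 ± 0.08, limma adjusted p = 0.00378, and 0.0507 without the libraries numbered 4). Cyp2f2 was lower, at 492 ± 85.1 RPM with AZD8055 and 638 ± 63.9 RPM without it (-0.39 ± 0.06, limma adjusted p = 4e-05), and Cyp2d9 was lower, at 446 ± 175 RPM with AZD8055 and 654 ± 121 RPM without it (-0.60 ± 0.13, limma adjusted p = 0.00123). Of these 8, Cyp2c29, Cyp3a13, Cyp2f2 and Cyp2j5 were also called in the same direction with dusk AZD8055 in the first table. They are 50% of the 8 and 18.2% of the 22 called there, and the libraries are separate. There 52.4% of the members were called, so by that share alone a like part of the 8 would be called in both. The overlap over all genes was not counted. Cyp2b10 had a median of 133 RPM with AZD8055 and 132 RPM without it and was not called different in daily mean. Acute phase genes were again higher, 17 of 18 with a median of 1.07, and their part in the P450 differences was not tested. Limma called 0 rhythm differences among members, where 0.0326% of all genes were called, with 1 at an unadjusted p under 0.05 and 0 called by edgeR.

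Over all arms 126 rhythms of members were called, and 79, 77 and 77 without the libraries numbered 1, 2 and 3. In BMKO liver 0 members were rhythmic with rapamycin, 0 with vehicle and 3 without injection, where 0.274%, 5.49% and 5.6% of all genes were. In these arms 3, 8 and 8 members had an unadjusted p under 0.05 in limma, and edgeR called 0, 0 and 3. In night-fed WT liver 2 members were rhythmic with rapamycin, 8 with vehicle and 11 without injection, where 5.1%, 14.9% and 21.8% of all genes were. The counts were 12 in TSKO, 7 in RPKO and 9 in Albumin-Cre liver, where 24.3%, 17.5% and 23.3% of all genes were rhythmic. In arrhythmically fed liver they were 11 with dawn AZD8055, 16 with dusk AZD8055 and 6 without it, where 21.0%, 19.5% and 7.96% of all genes were, and 10 with ad libitum feeding, where 16.6% were. Under tunicamycin they were 13 with arrhythmic feeding and dusk AZD8055, 5 with arrhythmic feeding and 13 with night feeding, where 21.2%, 7.52% and 15% of all genes were. Differences between these counts were not tested. No rhythm difference of a member was called with rapamycin or vehicle in either genotype or in TSKO or RPKO liver, where up to 5 members in a comparison had an unadjusted p under 0.05 in limma and edgeR called 0, and 0.00815% of all genes were called in TSKO liver and 0.322% with rapamycin in BMKO liver.

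Cyp2b10 and Cyp3a13 were rhythmic in 10 arms each, Cyp2e1 and Cyp2u1, a fatty acid hydroxylase, in 7 each, and Cyp2c70, which makes the muricholic acids of mouse bile, in 6. In night-fed WT liver Cyp2c70 peaked at ZT 0.603 ± 0.839 with an amplitude of 0.40, and Cyp2e1 at ZT 12.6 ± 0.914 with an amplitude of 0.32. In TSKO liver Cyp2b10 had an amplitude of 1.57 and peaked at ZT 19.6 ± 0.478, and in Albumin-Cre liver it had an amplitude of 0.76 and peaked at ZT 21.3 ± 0.848, waves that were not called different. The 11 members rhythmic in no arm included Cyp1a2, Cyp2f2 and Cyp3a11.

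**Figure D5:**
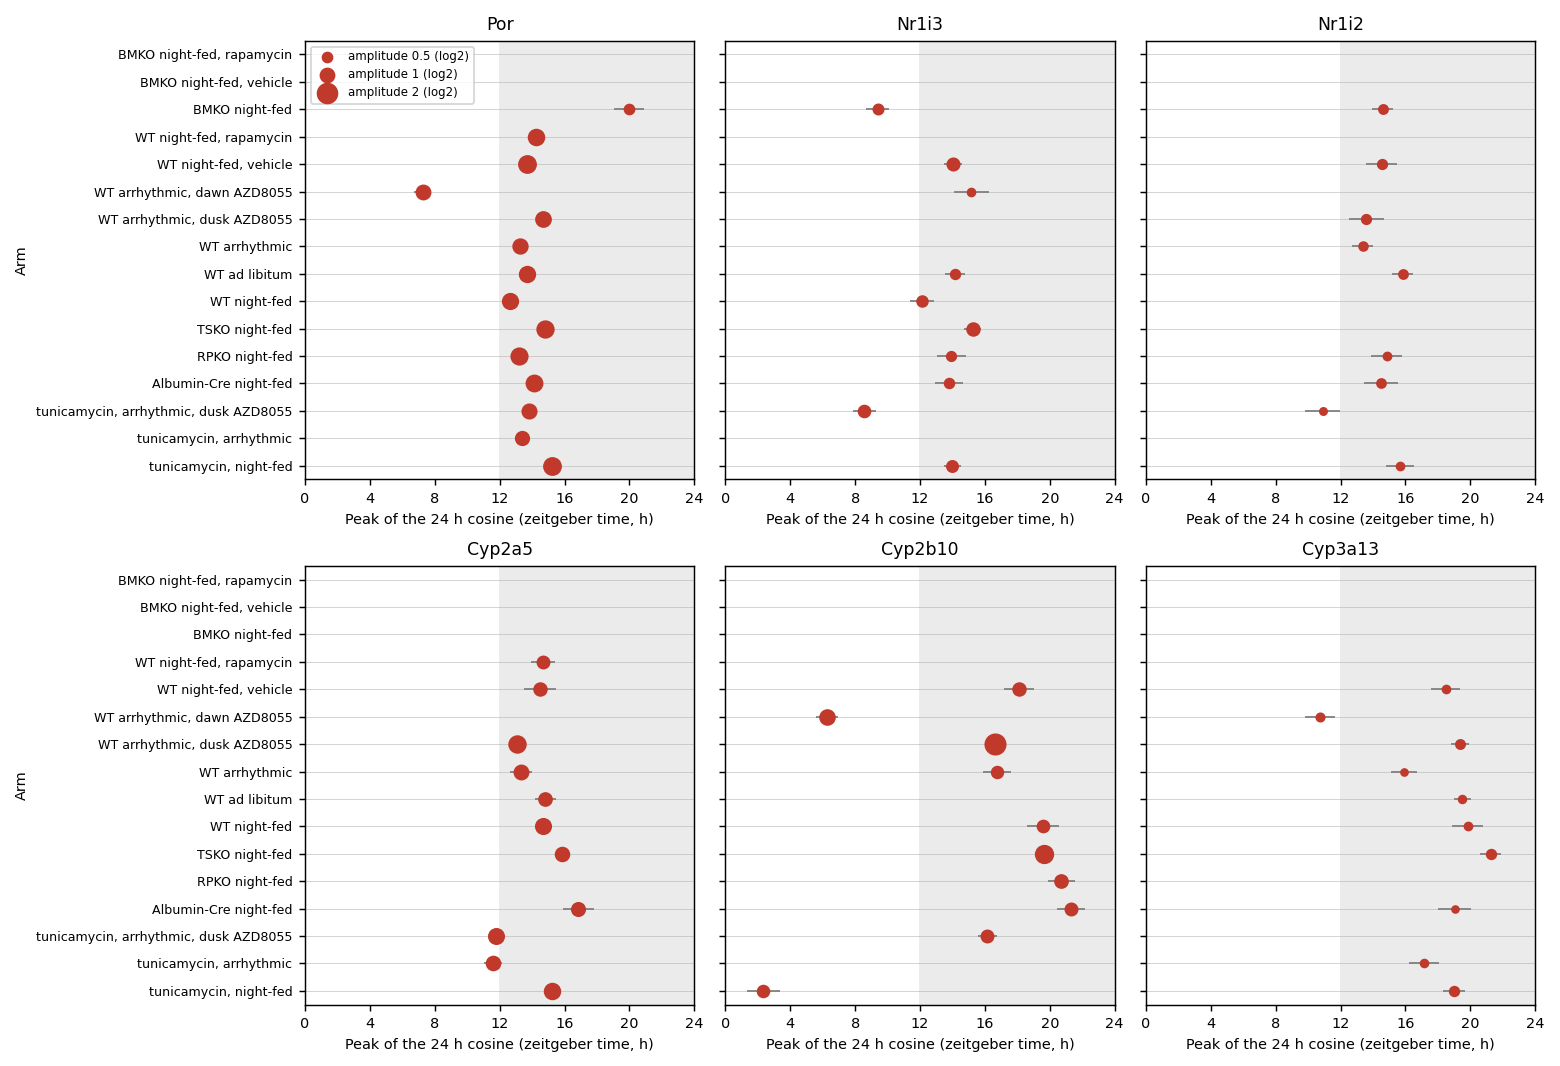
Peak of the fitted 24 h wave (zeitgeber time, h; bars, SE) for 6 members in every arm where limma called a rhythm; the size of a point gives the amplitude, and grey marks the dark phase. Por peaks between ZT 12.6 and ZT 15.2 except with dawn AZD8055 (ZT 7.26) and in BMKO liver (ZT 19.98), and Cyp2a5, Cyp2b10 and Cyp3a13 have no point in the 3 BMKO arms. Each of these genes also lacks a point in some arms with Bmal1 intact.

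Regulators and partners of the P450 system were counted from lists, beside the share of all genes called. In BMKO liver without injection 71.7% (34.3% higher and 37.4% lower) of all genes were called. There 8 of 16 genes of electron transfer and haem supply were higher and 5 lower, 6 of 15 xenobiotic sensors and partners were higher and 6 lower, counts near that share, and of 15 liver-enriched factors 4 were higher and 4 lower. Of 10 PAR bZIP and clock regulators 2 were higher and 6 lower without injection, and 2 higher and 5 lower with vehicle, where 21.7% (9.93% higher and 11.8% lower) of all genes were called. Nr1d2, the repressor REV-ERB beta, had a difference of -3.42 and Nr1d1, REV-ERB alpha, of -1.91 in BMKO liver without injection. Among 26 genes of phase 2 conjugation and transport 5 were higher and 16 lower in BMKO liver without injection, with a median of -0.55, beside -0.06 over all genes. With dawn AZD8055, where 41.0% (20.9% higher and 20.2% lower) of all genes were called, 5 of that list were higher and 14 lower, with a median of -0.43, beside 0.01 over all genes. The glutathione transferase Gstm3 was higher by 3.21 in BMKO liver without injection and by 2.25 with vehicle, against the direction of most of that list without injection.

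Sex-biased liver genes outside the family differed in several comparisons. Of 9 male-biased genes 0 were higher and 6 lower with dawn AZD8055, with a median of -0.96, beside 0.01 over all genes. There 41.0% (20.9% higher and 20.2% lower) of all genes were called. With dusk AZD8055 1 was higher and 5 lower, with a median of -0.77, beside 0.02 over all genes, where 50.8% (26.8% higher and 23.9% lower) of all genes were called. With dusk AZD8055 under tunicamycin 0 were higher and 5 lower, with a median of -0.71, beside -0.01 over all genes, where 8.85% (4.19% higher and 4.66% lower) of all genes were called. The summed male-biased genes had higher medians in TSKO liver (13820 RPM) and in RPKO liver (14520 RPM) than in Albumin-Cre liver (8020 RPM), with overlapping ranges. By gene, 3 were higher and 3 lower in TSKO liver, where 36.6% (18.7% higher and 17.9% lower) of all genes were called, and 4 higher and 0 lower in RPKO liver, where 42.5% (19.4% higher and 23.1% lower) were called. Without injection the summed male-biased genes had a median of 4162 RPM in BMKO liver and 6196 RPM in WT liver. With vehicle the medians were 6511 RPM in BMKO liver and 7384 RPM in WT liver, and the ranges overlapped in both comparisons. The 6 female-biased genes with values summed to a median of 11.1 RPM in BMKO liver and 82.1 RPM in WT liver without injection, and of 12.7 RPM in BMKO liver and 79.3 RPM in WT liver with vehicle, with ranges that overlapped in both comparisons. Of the 3 of them that were tested, 2 were lower in both comparisons, Acot3, an acyl-CoA thioesterase (-3.09 without injection and -2.88 with vehicle), and Cyp17a1, a steroid hydroxylase (-2.504 and -2.68). Of all genes 37.4% were lower in BMKO liver without injection and 11.8% with vehicle. Among 10 pericentral genes outside the family 3 were higher and 0 lower in RPKO liver, and among 12 periportal genes 3 were higher and 2 lower in TSKO liver, a count near the share over all genes.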

How the data were processed

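Liver RNA was read as 3′ tags in 282 libraries of 16 arms. Per the submitters' processing notes, STAR 2.7.3a and SAMtools were used with the genome mm10 or GRCm38.p6. The sources used here do not give the read counter, the annotation or the scaling. The authors deposited 2 tables of scaled read counts per gene, a signal with 1 factor per library. In each library the low values stepped by a fixed amount, and dividing by that step gave whole reads, within 0.01, for 100% of values, except RPKO libraries, where 98.9% were whole and 197 genes, no member among them, lay off the step. The tables list 15907 symbols, of which 7 have no values in the second.

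The recovered reads were rescaled with TMM (edgeR 4.0.16) to RPM, and genes were kept from a mean of 1 RPM upwards. limma 3.58.1 in R 4.3.3, with a mean-variance trend, was fitted to log2(RPM + 0.5) with 1 coefficient per arm and time, and p-values were adjusted over all genes by the Benjamini-Hochberg method with a threshold of 0.05. Fold changes on this scale understate changes of low genes. A daily mean is the mean over times, a rhythm is a 24 h cosine wave, and a rhythm difference is that between 2 waves. Liver knockouts were fitted on 12266 genes. The scripts were tested on simulated data. Alternatives were pseudocounts of 0.1 and 2, no filter, DESeq2 size factors, the deposited scaling, edgeR and DESeq2 1.42.0 on recovered reads, a replicate block, leaving out each replicate number, and leaving out the libraries below 3 M reads; leaving out the 4 libraries over 2 times nearer to another time than to their own, in arms other than BMKO, was chosen after seeing the data.

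Members and gene lists were chosen with earlier results of these data known. Named are 11 key members throughout, up to 5 higher and 5 lower members with the largest differences per comparison, up to 4 with the largest amplitude per arm, up to 4 with the smallest adjusted p for a rhythm difference, and up to 4 genes per list. Replicate numbers are not said to pair mice. In no comparison did every same-numbered pair correlate above 0.1, a bar that partly paired libraries would also miss. With rapamycin against vehicle in BMKO liver 11 of 18 pairs did, and in RPKO against Albumin-Cre liver 1 of 18. Between times of an arm, 44 of 45 such pairs did in BMKO liver with vehicle. In uninjected night-fed WT liver 34 of 45 did, and in undosed arrhythmically fed WT liver 9 of 45. Whether the replicates came from separate extractions or runs is not stated, and p-values measure the spread between these libraries. Where same-numbered libraries of an arm are related, p-values of its daily mean differences would be too small, those of BMKO liver with vehicle included. Depth limits precision for genes near 1 RPM most.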

Additional observations from a re-analysis of the deposited data

Results flagged for a closer look

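In 132 groups of 4 libraries, all under tunicamycin, 9 held a library far from the other 3, where chance gives about 1 in 20 groups. With arrhythmic feeding and dusk AZD8055 these were the highest library of Cyp2b10 at ZT 4 (104 RPM), of Cyp2d9 at ZT 16 (533 RPM) and of Nr1i3 at ZT 10 (111 RPM), and the lowest of Nr1i2 at ZT 4 (81.3 RPM). With arrhythmic feeding alone they were the highest library of Cyp2a5 at ZT 10 (437 RPM) and of Nr1i3 at ZT 4 (78.2 RPM) and the lowest of Cyp3a11 at ZT 4 (459 RPM). With night feeding they were the highest library of Cyp2d9 at ZT 22 (729.7 RPM) and of Por at ZT 16 (979 RPM).

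Among the 11 key members, 8 effects differed between genotypes by the interaction test in limma. The difference made by rapamycin in Cyp2e1 was -1.03 (log2) in BMKO relative to WT liver (limma adjusted p = 0.000767). For vehicle against no injection the interaction was 2.46 in Cyp3a11, 0.90 in Cyp2a5, 0.41 in Cyp2c29, -0.78 in Cyp1a2, -1.14 in Cyp2d9, -0.65 in Por and -0.99 in Nr1i2, with adjusted p between 6.73e-09 and 0.0312. With the deposited scaling the median of all genes in that interaction was 0.43.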

How the results depend on the processing

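Of 290 calls of a member in a comparison of daily means, 169 were called under every alternative run and 0 reversed. Calls lost were 5 and 3 with pseudocounts of 0.1 and 2, 6 with no filter, 4 with DESeq2 size factors, 23 with the deposited scaling, 12 with edgeR, 4 with DESeq2, 7 of 158 without the libraries below 3 M reads, and 3 of 86 without the 4 libraries over 2 times nearer to another time. Leaving out replicates 1, 2 and 3 lost 67, 67 and 50, and replicate 4 lost 4 of 8; fewer libraries enter those fits. The counts of members called then ran from 17 to 24 with ad libitum feeding, 9 to 13 with rapamycin in WT liver, 6 to 14 with vehicle in WT liver, 14 to 20 with dusk AZD8055, 4 to 7 with dusk AZD8055 under tunicamycin, 1 to 8 for the rapamycin interaction, 10 to 16 for rhythm differences and 77 to 79 for rhythms (126 with all libraries). For feeding under tunicamycin the count of 0 became 1 with a pseudocount of 2, DESeq2 size factors, the deposited scaling, edgeR, DESeq2 or the replicate block; the cause was not tested. With the replicate block the counts were 21, 27, 30 and 25 for arrhythmic feeding, ad libitum feeding and BMKO without injection and with vehicle, and 0 of 290 calls were lost. That block gives each replicate number 1 shift shared by all arms of a fit. In a balanced design it leaves the daily mean differences unchanged, so few calls could be lost. In BMKO liver with vehicle, same-numbered libraries of different times correlated with a median of 0.481, the highest of any arm. This is a hint from the data and not the design, and the shared block does not model a shift within 1 arm. Genes near 1 RPM have the least depth.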
